A study of Homo sapiens with 6 samples.

Results

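The 10 genes described here carry the canonical Wnt signal inside the cell or restrain it: the LEF/TCF transcription factors *LEF1*, *TCF7*, *TCF7L1* and *TCF7L2*, their partner β-catenin (*CTNNB1*), the destruction complex genes *APC*, *AXIN1* and *AXIN2*, and the membrane ubiquitin ligases *RNF43* and *ZNRF3*. They were chosen by gene symbol, with earlier results of these data known. All 10 were found among the 18118 genes of the counts table, and all 10 passed the filter on low counts that left 14571 genes for testing. The libraries came from SU-CCS-1, an established human line of clear cell sarcoma whose driver is the fusion *EWSR1::ATF1* (*EA1*). Polyadenylated RNA was sequenced in 6 libraries after transient transfection of siRNA, with 2 libraries of a negative control siRNA (siNeg1), 2 of EA1 siRNA 1 (siEA1-1) and 2 of EA1 siRNA 2 (siEA1-2). All groups are therefore the same *EA1*-bearing line after transfection. The labels do not say whether replicates were separate cultures, so p-values measure the spread between these libraries, which may be technical, and 1 cell line stands for the disease. The comparisons ask which of these genes were higher or lower after siRNA against *EA1*.

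Without a Wnt ligand, a cytoplasmic complex of axin, APC and kinases marks β-catenin for degradation. When ligand binds Frizzled and LRP receptors the complex is inhibited, β-catenin enters the nucleus, and LEF/TCF proteins on target genes switch from repression to activation. *AXIN2*, *RNF43* and *ZNRF3* are themselves targets in many tissues and feed back on the pathway, and in the neural crest, from which melanocytes arise, Wnt signals help to specify the pigment cell lineage.

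The libraries held between 5942808 and 7599305 counts. A floor of 3 counts, below which a level was read as 0 within counting error, corresponded to 0.395 to 0.505 CPM. For this floor and the marker sums, CPM are counts scaled to the library total. CPM of single genes are counts scaled to the normalized library size. The targeted transcript served as the check of the labels: *ATF1*, whose reads include those of the fusion, fell from 84.8 CPM in control to 20.7 CPM under EA1 siRNA 1 and 22 CPM under EA1 siRNA 2 (log2FC of 2.03 ± 0.13 and 1.94 ± 0.13, SE, n = 2 libraries per group), while *EWSR1* was not called with either. The counts do not separate native *ATF1* from the fusion, so a fall of native *ATF1* with these siRNAs cannot be told apart from a fall of *EA1*. Reads of the *EWSR1* part of the fusion can likewise count towards *EWSR1*. It stood at 216 CPM in control, 199 CPM with EA1 siRNA 1 and 209 CPM with EA1 siRNA 2. That *EWSR1* was not called is therefore no separate check of the fusion or of native *EWSR1*. Among markers of clear cell sarcoma and the melanocyte lineage, 8 of 8 were in the table. Their summed level was 2810 to 3020 CPM in control, 8010 to 8250 CPM with EA1 siRNA 1 and 7400 to 11300 CPM with EA1 siRNA 2, and its part in the changes below was not tested. *MLANA*, 1 of the 8, had 0 to 24 counts, and *PMEL*, on which the sum leans most, 8113 to 43636. The markers did not move alike. Against the mean of both EA1 siRNAs *SOX10* was not called (log2FC -0.16, edgeR adjusted p = 0.192). *MITF* rose with a log2FC of -0.78, and the rest rose with -3.10 to -2.14. Leukocyte markers held 0 of 4 genes in the table, epithelial markers 1 of 4 with a summed level of at most 1.15 CPM, endothelial markers 2 of 3 with at most 2.95 CPM, and fibroblast markers 2 of 5, which summed to 2.76 to 3.45 CPM in control, 8.89 to 12.1 CPM with EA1 siRNA 1 and 12.9 to 21.7 CPM with EA1 siRNA 2.

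In control cells the 10 genes spanned a wide range of expression per exon length. *CTNNB1* stood first at 73.9 ± 4.58 RPKM (counts scaled to normalized library size and exon length, mean ± SD, n = 2), at percentile 97.4 of the genes tested. *APC* followed at 15.4 ± 0.0919 RPKM. *TCF7L1* at 8.86 ± 1.06 and *AXIN1* at 8.08 ± 0.508 RPKM were next, and these neighbours did not differ beyond their spread. *ZNRF3* stood at 4.64 ± 0.0764, *TCF7L2* at 3.6 ± 0.383 and *TCF7* at 2.36 ± 0.0594 RPKM. At the low end, *RNF43* stood at 1.1 ± 0.423, *AXIN2* at 0.993 ± 0.101 and *LEF1* at 0.719 ± 0.168 RPKM, at percentiles 18.4, 16.9 and 12.8. The spread of *RNF43* overlapped that of both others, whereas both *AXIN2* values lay above both *LEF1* values. The levels of *RNF43*, *AXIN2* and *LEF1* were thus low and rest on 25 to 69 counts per control library (3 to 86 over all 6 libraries). Exons of *RNF43* and *AXIN2* share 4326 and 1316 bases with another gene annotated on the same strand. How reads in such overlaps were counted is not given, so the levels and percentiles of these 2 genes may be understated.

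Of the 10 genes, 4 (40%) were called with EA1 siRNA 1, where 40.1% of all genes tested were called. *TCF7*, *TCF7L1* and *AXIN1* fell after knockdown, against a background of 20.3% of genes that fell, and *CTNNB1* rose, against 19.9% that rose. With EA1 siRNA 2, 6 (60%) were called against 36.7% of all genes. *TCF7*, *TCF7L1* and *ZNRF3* fell, where 18.2% of all genes did, and *CTNNB1*, *APC* and *RNF43* rose, where 18.5% did. Against the mean of both EA1 siRNAs, 6 were called against 43.5% of all genes, with 3 that fell (*TCF7*, *TCF7L1*, *AXIN1*; background 22.1%) and 3 that rose (*CTNNB1*, *APC*, *RNF43*; background 21.5%). A called gene has an adjusted p under 0.05 in edgeR's quasi-likelihood test. A positive log2FC means higher expression in control than in knockdown. The comparisons share the control libraries. Because the members were chosen with earlier results of these data known, their shares of calls are descriptive. The share of members called with EA1 siRNA 1 was that of all genes, and their median absolute log2FC, 0.40 with EA1 siRNA 1 and 0.44 with EA1 siRNA 2, lay close to the 0.44 and 0.41 of all genes tested. Called changes of the members ranged from 1.24-fold to 1.84-fold. The calls depended on single libraries: with each left out in turn, 0 to 4 members were called with EA1 siRNA 1 (0 without control replicate 2, 1 without either EA1 siRNA 1 library, 2 without control replicate 1) and 2 to 4 with EA1 siRNA 2 (2 without either control library, 3 without EA1 siRNA 2 replicate 1 or either EA1 siRNA 1 library). For the mean, fewer were called without either control library. Where leaving out a library lowered the number of members called, it lowered the number of all genes called as well.

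**Figure D1:**
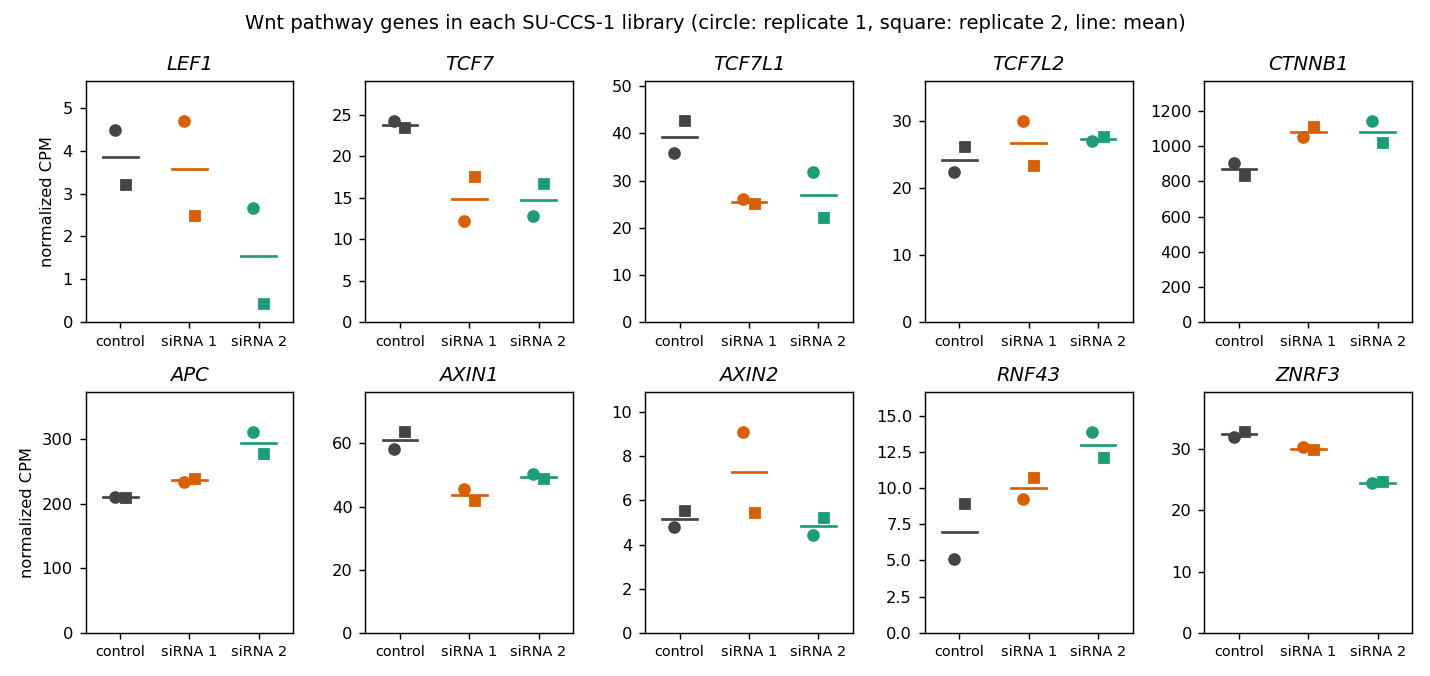
Normalized expression of the 10 Wnt pathway genes in each library, in CPM on axes that start at 0, for control siRNA, EA1 siRNA 1 and EA1 siRNA 2; circles are replicate 1, squares replicate 2 and lines the mean of 2 libraries. *TCF7* and *TCF7L1* lay lower in all 4 knockdown libraries than in either control library and *CTNNB1* higher, whereas *LEF1* at 0.421 to 4.69 CPM overlapped between control and EA1 siRNA 1.

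**Figure D2:**
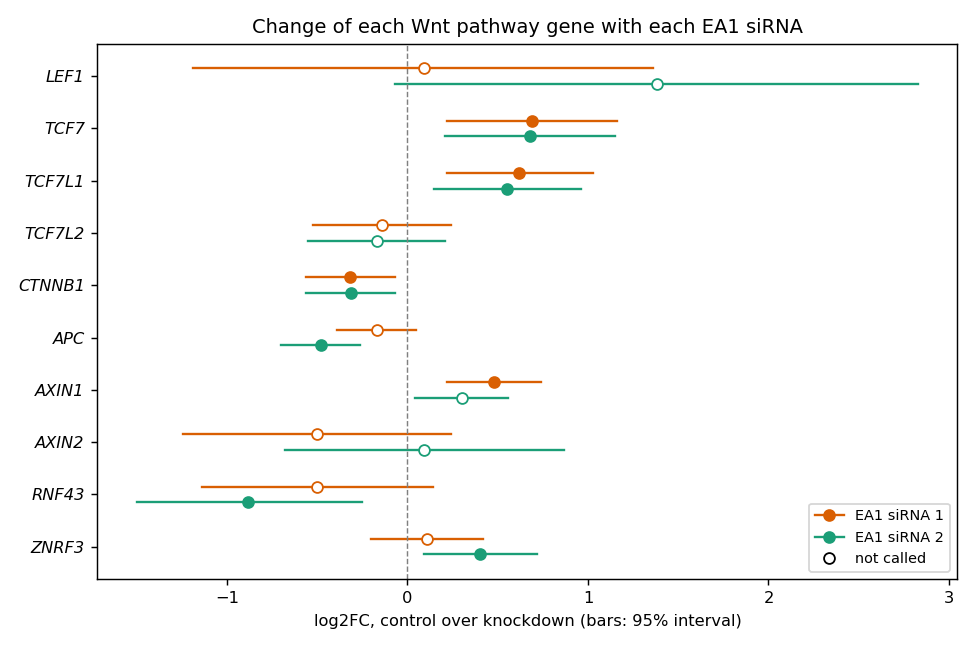
Log2FC of each gene, control over knockdown, for EA1 siRNA 1 and EA1 siRNA 2, with bars for the unadjusted 95% interval of the edgeR fit over 6 libraries; filled points passed an adjusted p of 0.05. *TCF7*, *TCF7L1* and *CTNNB1* are filled for both siRNAs, the first 2 to the right of 0 (0.55 to 0.69) and *CTNNB1* to the left (-0.32 and -0.31).

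*TCF7* (ENSG00000081059, chr5:134114681-134151865, + strand, hg38) encodes TCF1, a LEF/TCF factor best known from T cell development. It had 162 and 182 counts in control, 86 and 106 with EA1 siRNA 1, and 72 and 119 under EA1 siRNA 2, or in the same order 24.2 and 23.4 CPM, 12.2 and 17.5 CPM, and 12.8 and 16.7 CPM. Both control libraries were higher than every knockdown library, although knockdown replicates differed from each other by more than the controls did. *TCF7* fell 1.61-fold with EA1 siRNA 1 (log2FC 0.69 ± 0.21, SE, edgeR adjusted p = 0.0233) and 1.6-fold with EA1 siRNA 2 (0.68 ± 0.21, edgeR adjusted p = 0.0271). The call with EA1 siRNA 1 was lost without either control library or without EA1 siRNA 1 replicate 1 (log2FC 0.66, 0.75 and 0.45) and in DESeq2 (adjusted p = 0.0554), and that with EA1 siRNA 2 without either control library or EA1 siRNA 2 replicate 1 (0.65, 0.74 and 0.53) and in DESeq2 (adjusted p = 0.0679). Its exons overlap those of *SKP1* on the opposite strand by 210 bases, and since the use of strand in the counting is not given in the sources used here, reads of *SKP1* (1174 to 1342 counts) in that overlap cannot be told apart.

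*TCF7L1* (ENSG00000152284, chr2:85133392-85310387, + strand) encodes TCF3, the member of the family that acts mainly as a repressor in stem cells. It had 240 and 331 counts in control, 183 and 152 with EA1 siRNA 1, and 179 and 157 under EA1 siRNA 2, or in the same order 35.9 and 42.6 CPM, 26 and 25 CPM, and 31.9 and 22 CPM. Again every knockdown library was below both controls, with the smallest gap between control replicate 1 and EA1 siRNA 2 replicate 1. *TCF7L1* fell 1.54-fold with EA1 siRNA 1 (log2FC 0.62 ± 0.18, edgeR adjusted p = 0.0188) and 1.47-fold with EA1 siRNA 2 (0.55 ± 0.18, edgeR adjusted p = 0.0349). The call with EA1 siRNA 1 was lost without control replicate 2, EA1 siRNA 1 replicate 1 or replicate 2 (0.52, 0.65 and 0.61), and that with EA1 siRNA 2 without control replicate 2, EA1 siRNA 1 replicate 1 or EA1 siRNA 2 replicate 2 (0.46, 0.55 and 0.33), in DESeq2 (adjusted p = 0.0753) and in a fit of only the libraries compared (adjusted p = 0.0566).

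*TCF7L2* (ENSG00000148737, chr10:112950247-113167678, + strand) encodes TCF4, the main LEF/TCF factor of intestinal epithelium. It had 150 and 203 counts in control, 211 and 142 with EA1 siRNA 1, and 152 and 197 under EA1 siRNA 2, or in the same order 22.4 and 26.1 CPM, 30 and 23.4 CPM, and 27.1 and 27.7 CPM. The EA1 siRNA 1 libraries lay on both sides of a control library, and the EA1 siRNA 2 libraries just above both. The log2FC was -0.14 with EA1 siRNA 1 (95% interval -0.52 to 0.24, edgeR adjusted p = 0.565) and -0.17 with EA1 siRNA 2 (-0.55 to 0.21, edgeR adjusted p = 0.483). *TCF7L2* was not called, and the intervals leave room for a change in either direction. Without EA1 siRNA 1 replicate 1 the sign with EA1 siRNA 1 turned, to 0.05.

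*LEF1* (ENSG00000138795, chr4:108047545-108168956, - strand) encodes a LEF/TCF factor that works with MITF in melanocytes. It was the scarcest member, with 30 and 25 counts in control, 33 and 15 with EA1 siRNA 1, and 15 and 3 under EA1 siRNA 2, or in the same order 4.49 and 3.21 CPM, 4.69 and 2.47 CPM, and 2.67 and 0.421 CPM. EA1 siRNA 1 libraries enclosed both controls, while both EA1 siRNA 2 libraries were below them and 1 of these stood at the floor of 3 counts. The log2FC was 0.09 ± 0.58 with EA1 siRNA 1 (edgeR adjusted p = 0.924), and its sign turned without control replicate 1 (-0.17) or EA1 siRNA 1 replicate 2 (-0.27). With EA1 siRNA 2 it was 1.38 ± 0.66 (edgeR adjusted p = 0.126), which was not called. With the replicate number as a block it was 1.48 ± 0.53 and was called (edgeR adjusted p = 0.0384). Without EA1 siRNA 2 replicate 1 it was 3.15 (edgeR adjusted p = 0.0069), resting on the library with 3 counts, and without that library, EA1 siRNA 2 replicate 2, it was 0.55 (edgeR adjusted p = 0.509). Against the mean of both EA1 siRNAs the log2FC was 0.73, the largest in size of the 10 genes, and was not called (edgeR adjusted p = 0.285; 1.63 and adjusted p = 0.0192 without EA1 siRNA 2 replicate 1, 0.33 and adjusted p = 0.569 without EA1 siRNA 2 replicate 2).

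Set side by side per exon length, the family summed to 14.7 and 16.4 RPKM in control, 12.4 and 11.3 RPKM with EA1 siRNA 1, and 13 and 10.8 RPKM under EA1 siRNA 2. By RPKM *TCF7L1* was the most abundant factor in every library, with 55.2% and 58.6% of the family sum in control and 46% to 55.4% in knockdown. This order and the shares depend on the union exon lengths used. By CPM *TCF7L2* exceeded *TCF7L1* in EA1 siRNA 1 replicate 1 (30 against 26) and EA1 siRNA 2 replicate 2 (27.7 against 22). The share of *TCF7L2* was 22.7% and 23.6% in control and 30.7% to 38% in the knockdown libraries, all 4 of them above both controls. *TCF7* took 16.4% and 14.1% in control and 9.76% to 15.3% in knockdown, and *LEF1* never took more than 7.05%. These shares are descriptive and were not tested, and a share rises when the other members fall.

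**Figure D3:**
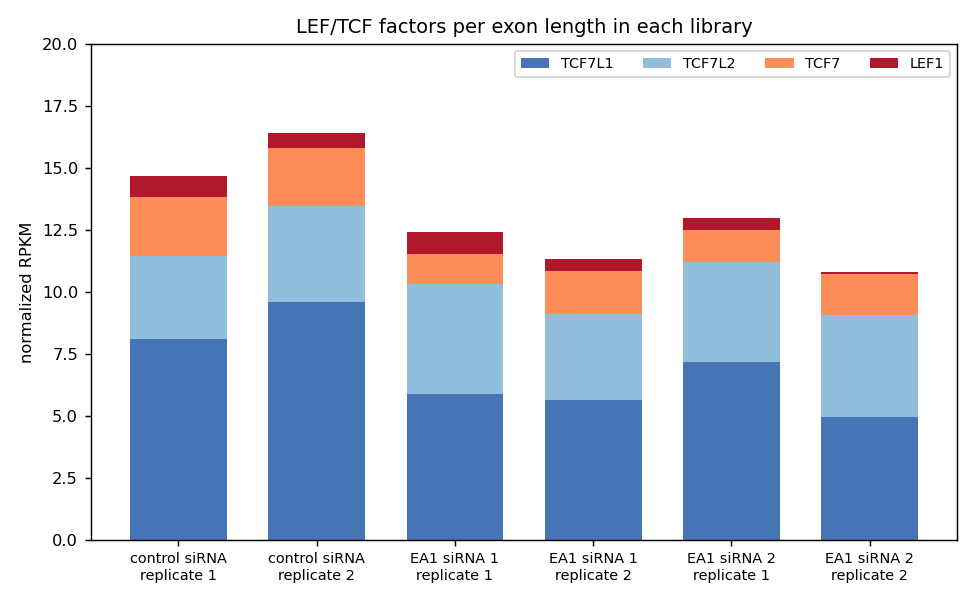
Normalized RPKM of the 4 LEF/TCF factors stacked in each of the 6 libraries, replicate by replicate. The columns reach 14.7 and 16.4 RPKM in control and 10.8 to 13 RPKM in knockdown, with *TCF7L1* the largest segment throughout.

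Promoter sequence is shown for the 3 genes called with both siRNAs, *TCF7*, *TCF7L1* and *CTNNB1*, and for *TCF7L2*, which like *LEF1* was not called. ATF1 and CREB proteins bind the cAMP response element (CRE), for which the windows were searched. Sequences are the RefSeq windows (GRCh38.p14) of 250 bases before the transcription start, trimmed to the stretch outside annotated exons and written 5′ to 3′ on the gene's strand, which is + for all 4. They are chr5:134115388-134115562 for *TCF7*, chr2:85133142-85133391 for *TCF7L1*, chr3:41199255-41199388 for *CTNNB1* and chr10:112949997-112950246 for *TCF7L2*. The windows of *TCF7* and *CTNNB1* lie downstream of the first annotated start of their genes. Capitals mark the CRE half-site TGACG read on the opposite strand.
TCF7: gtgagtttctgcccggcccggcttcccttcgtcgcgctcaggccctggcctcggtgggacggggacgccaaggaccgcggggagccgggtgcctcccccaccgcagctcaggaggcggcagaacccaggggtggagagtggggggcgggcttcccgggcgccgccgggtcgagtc
TCF7L1: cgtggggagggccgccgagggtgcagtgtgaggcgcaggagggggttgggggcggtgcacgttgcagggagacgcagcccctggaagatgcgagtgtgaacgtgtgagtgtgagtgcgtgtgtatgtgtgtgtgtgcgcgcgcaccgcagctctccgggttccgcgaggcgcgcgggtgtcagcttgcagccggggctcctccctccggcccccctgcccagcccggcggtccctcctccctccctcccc
CTNNB1: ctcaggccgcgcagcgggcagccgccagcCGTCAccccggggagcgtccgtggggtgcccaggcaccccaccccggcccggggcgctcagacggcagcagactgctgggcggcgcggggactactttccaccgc
TCF7L2: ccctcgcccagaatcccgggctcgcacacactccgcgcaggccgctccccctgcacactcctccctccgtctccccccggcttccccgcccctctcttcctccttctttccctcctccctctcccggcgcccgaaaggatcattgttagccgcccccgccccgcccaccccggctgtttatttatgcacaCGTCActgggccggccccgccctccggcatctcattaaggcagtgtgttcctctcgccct

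RefSeq promoter windows were matched for 8 of the 10 genes. The full CRE TGACGTCA was in 0 of the 8, against 1.77% of 27305 promoter windows of the same length, both strands searched. The half-site TGACG, which the full CRE contains, was in 2 of 8, *CTNNB1* and *TCF7L2*, against 21.7% of promoters. In *CTNNB1* it began 221 bases and in *TCF7L2* 60 bases before the start. The AP1 motif TGAGTCA (4.16% of promoters) and the LEF/TCF core CTTTGA (11.4%) were in 0 of the 8. *TCF7* and *TCF7L1*, which fell with both siRNAs, held none of the 4 motifs in these windows, and *CTNNB1* and *TCF7L2* shared the half-site although only *CTNNB1* was called. A match is a run of letters in this window, and binding was not analysed here.

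*CTNNB1* (ENSG00000168036, chr3:41194741-41260096, + strand) encodes β-catenin, which is both the coactivator of LEF/TCF factors and a component of cadherin junctions. It was the most abundant of the 10, with 6061 and 6463 counts in control, 7401 and 6746 with EA1 siRNA 1, and 6419 and 7259 under EA1 siRNA 2, or in the same order 907 and 831 CPM, 1053 and 1111 CPM, and 1143 and 1019 CPM. All 4 knockdown libraries lay above both control libraries. *CTNNB1* rose 1.24-fold with each EA1 siRNA (log2FC -0.32 ± 0.11, edgeR adjusted p = 0.0409, and -0.31 ± 0.11, edgeR adjusted p = 0.0448), at the margin of the threshold. Without either control library or either EA1 siRNA 1 library the call with EA1 siRNA 1 was lost (-0.38, -0.22, -0.36 and -0.26), as it was with RLE size factors (adjusted p = 0.0541). That with EA1 siRNA 2 was lost without any of 5 of the 6 libraries (-0.38 to -0.21; EA1 siRNA 2 replicate 2 was the exception), with RLE size factors (adjusted p = 0.0538) and with only the libraries compared (adjusted p = 0.0649). Protein level and phosphorylation, by which β-catenin is chiefly controlled, were not measured.

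*APC* (ENSG00000134982, chr5:112707518-112846239, + strand) encodes the large scaffold that presents β-catenin to the destruction complex. It had 211 and 209 CPM in control, 234 and 238 CPM with EA1 siRNA 1, and 311 and 277 CPM under EA1 siRNA 2, on 1410 to 1970 counts per library. The 3 groups did not overlap, with EA1 siRNA 2 highest. *APC* rose 1.4-fold with EA1 siRNA 2 (log2FC -0.48 ± 0.10, edgeR adjusted p = 0.00276), and this was called in all 12 alternatives (log2FC -0.53 to -0.38). With EA1 siRNA 1 the log2FC was -0.17 ± 0.10 and was not called (edgeR adjusted p = 0.207). The call against the mean of both (-0.33, edgeR adjusted p = 0.0101) was lost without control replicate 1 (-0.33, adjusted p = 0.0752) or control replicate 2 (-0.29, adjusted p = 0.116).

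*AXIN1* (ENSG00000103126, chr16:287440-352723, - strand) encodes the constitutive scaffold of the destruction complex, and its level is held to limit how much complex forms. It had 389 and 495 counts in control, 320 and 254 with EA1 siRNA 1, and 283 and 346 under EA1 siRNA 2, or in the same order 58.2 and 63.6 CPM, 45.5 and 41.8 CPM, and 50.4 and 48.6 CPM. Both controls were above all 4 knockdown libraries. *AXIN1* fell 1.39-fold with EA1 siRNA 1 (log2FC 0.48 ± 0.12, edgeR adjusted p = 0.007). The log2FC with EA1 siRNA 2 was 0.30 ± 0.12 and just missed the threshold (edgeR adjusted p = 0.0646). The call with EA1 siRNA 1 was lost without control replicate 2 (0.45, adjusted p = 0.0534) or EA1 siRNA 1 replicate 2 (0.44, adjusted p = 0.0617), and the call against the mean (0.39, edgeR adjusted p = 0.00793) without control replicate 2 (0.36, adjusted p = 0.0773).

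*AXIN2* (ENSG00000168646, chr17:65528563-65561648, - strand), the inducible axin widely used as a reporter of Wnt activity, had few counts. It had 32 and 43 counts in control, 64 and 33 with EA1 siRNA 1, and 25 and 37 under EA1 siRNA 2, or in the same order 4.79 and 5.53 CPM, 9.1 and 5.43 CPM, and 4.45 and 5.19 CPM. A single library, EA1 siRNA 1 replicate 1, stood above the rest, and the groups overlapped with the controls. The log2FC was -0.50 with EA1 siRNA 1 (95% interval -1.24 to 0.24, edgeR adjusted p = 0.27) and 0.09 with EA1 siRNA 2 (-0.68 to 0.87, edgeR adjusted p = 0.862). *AXIN2* was not called, and both intervals include changes in either direction. The ratio of *AXIN1* to *AXIN2* RPKM was 8.38 and 7.94 in control, 3.45 and 5.31 with EA1 siRNA 1, and 7.81 and 6.45 under EA1 siRNA 2. The exons of *AXIN2* share 1316 bases with another gene annotated on the same strand (ENSG00000266076). Its level may therefore be understated and this ratio overstated.

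*RNF43* (ENSG00000108375, chr17:58353676-58417595, - strand) encodes a ubiquitin ligase that removes Frizzled receptors from the cell surface. It had 34 and 69 counts in control, 65 and 65 with EA1 siRNA 1, and 78 and 86 under EA1 siRNA 2, or in the same order 5.09 and 8.87 CPM, 9.24 and 10.7 CPM, and 13.9 and 12.1 CPM. Every knockdown library was above both controls, whose own values were far apart. *RNF43* rose 1.84-fold with EA1 siRNA 2 (log2FC -0.88 ± 0.29, edgeR adjusted p = 0.032), while the log2FC of -0.50 ± 0.29 with EA1 siRNA 1 was not called (edgeR adjusted p = 0.2). Its size moved with either control library: the log2FC with EA1 siRNA 2 was -0.55 (adjusted p = 0.202) without control replicate 1 and -1.31 (adjusted p = 0.0139) without control replicate 2. The call was also lost without EA1 siRNA 2 replicate 1 (-0.76), without EA1 siRNA 1 replicate 2 (-0.85) and in DESeq2 (adjusted p = 0.0828). Against the mean of both EA1 siRNAs it was -0.69 (edgeR adjusted p = 0.0466) and, without control replicate 2, -1.12 (adjusted p = 0.0181). This call was lost without control replicate 1 (-0.36), either EA1 siRNA 1 library (-0.74 and -0.61) or EA1 siRNA 2 replicate 1 (-0.62), with RLE size factors (adjusted p = 0.0509) and in DESeq2 (adjusted p = 0.12). Its exons share 4326 bases with another gene annotated on the same strand (ENSG00000285897, 2 to 10 counts). Reads there may have been split between them or left uncounted, so the level of *RNF43* may be understated.

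*ZNRF3* (ENSG00000183579, chr22:28883572-29057488, + strand), the paralog with the same activity, had 32 and 32.8 CPM in control, 30.3 and 29.8 CPM with EA1 siRNA 1, and 24.4 and 24.6 CPM under EA1 siRNA 2, on 137 to 255 counts. The replicates lay close together and the 3 groups did not overlap. *ZNRF3* fell 1.32-fold with EA1 siRNA 2 (log2FC 0.40 ± 0.14, edgeR adjusted p = 0.0463), and had a log2FC of 0.11 ± 0.14 with EA1 siRNA 1 that was not called (edgeR adjusted p = 0.579). The call with EA1 siRNA 2 was lost with any 1 of the 6 libraries left out (0.40 to 0.44), in DESeq2 (adjusted p = 0.176), without the filter (adjusted p = 0.0569) and with only the libraries compared (adjusted p = 0.0788). Per exon length, *ZNRF3* exceeded *RNF43* 5.7- and 3.35-fold in the control libraries, 2.97- and 2.52-fold with EA1 siRNA 1, and 1.59- and 1.84-fold under EA1 siRNA 2, a ratio that did not overlap between control and either EA1 siRNA and was not tested. The exon overlap of *RNF43* given above may make this ratio too high.

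Set against each other, the EA1 siRNAs left 0 of the 10 genes different in edgeR, where 2.24% of all genes tested were called (326 genes, and 853 with the replicate number as a block), and 0 in DESeq2. By either tool 1 gene, *APC*, had an unadjusted p under 0.05. Here a positive log2FC is higher with EA1 siRNA 1. That of *APC* was -0.31 ± 0.10 (edgeR adjusted p = 0.133; -0.39 and adjusted p = 0.0467 without EA1 siRNA 2 replicate 2), and that of *LEF1* was 1.29 (95% interval -0.17 to 2.76, edgeR adjusted p = 0.363; 3.04 and adjusted p = 0.0489 without EA1 siRNA 2 replicate 1, 0.45 and adjusted p = 0.757 without EA1 siRNA 2 replicate 2). For *TCF7*, *TCF7L1*, *TCF7L2* and *CTNNB1* the log2FC lay between -0.07 and 0.00, with intervals that reached from -0.50 to 0.48. The genes called with 1 siRNA alone, namely *AXIN1*, *APC*, *RNF43* and *ZNRF3*, were therefore not shown to respond differently to the siRNAs.

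Other genes of the pathway were examined in 8 lists by role, 129 genes beside the 10, of which 85 were in the table and 78 were tested. The lists were chosen with earlier results of these data known, so their shares of called genes are descriptive. Called were 37 (47.4%) with EA1 siRNA 1, 29 (37.2%) with EA1 siRNA 2 and 40 (51.3%) against the mean of both, near or somewhat above the shares of all genes, and the 40 split into 18 that fell and 22 that rose. The median absolute log2FC against the mean was 0.52 for these 78 genes and 0.41 for all genes tested. Values below are log2FC against the mean of both EA1 siRNAs, for genes called with each siRNA unless stated, with levels in CPM as mean ± SD (n = 2).

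At the cell surface, 3 of 21 listed ligand and secretion genes were tested and 1 was called, where 43.5% of all genes were. *WNT4*, a ligand, rose from 3.56 ± 0.675 CPM to 18.2 ± 3.09 with EA1 siRNA 1 and 11.5 ± 3.63 with EA1 siRNA 2 (log2FC -2.03, edgeR adjusted p = 0.000119). Of 14 receptors tested, 5 (35.7%, against 43.5% of all genes) were called, 3 that fell and 2 that rose. The Frizzled receptor *FZD3* fell from 526 ± 27.2 CPM to 129 ± 17.2 and 146 ± 27.9 (1.93, edgeR adjusted p = 2.39e-07), and the co-receptor *LRP5* fell (0.62), a call lost with EA1 siRNA 2 without either control library, without EA1 siRNA 2 replicate 2 and in DESeq2 (0.45, 0.53, 0.46 and 0.48). The Frizzled receptor *FZD7* rose (-1.06; lost with EA1 siRNA 2 without control replicate 2, -0.78). *LGR4*, the R-spondin receptor that spares Frizzled from RNF43 and ZNRF3, was the single member tested of its list and rose from 12.1 ± 0.0212 CPM to 32.5 ± 3.69 and 38.8 ± 7.81 (-1.55, edgeR adjusted p = 2.43e-05). Among 3 antagonists tested, *APCDD1* fell (1.38) and the Dickkopf receptor *KREMEN1* rose (-1.29).

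In the cytoplasm, 8 of 21 further destruction complex and signalling genes (38.1%, against 43.5% of all genes) were called, 2 that fell and 6 that rose. The kinase *CSNK1A1*, which primes β-catenin for degradation, fell from 304 ± 18.7 CPM to 170 ± 1.27 and 210 ± 15 (0.69, edgeR adjusted p = 5.65e-05). *TNKS*, the tankyrase that marks axin for degradation, rose from 213 ± 19.8 CPM to 355 ± 6.72 and 322 ± 17.7 (-0.66, edgeR adjusted p = 0.000141). The *APC* paralog *APC2* rose (-1.60) from a low level of 2.34 ± 1.13 CPM, a call lost without control replicate 2 (-1.12) and, with EA1 siRNA 1 alone, also without either EA1 siRNA 1 library (-1.51 and -1.34). In the nucleus, 8 of 18 partners of β-catenin and LEF/TCF (44.4%, against the same 43.5%) were called, 4 in each direction. *TLE3* (0.99) and *TBL1X* (1.18) fell, and *BCL9*, which binds β-catenin, and the kinase *HIPK2* rose (-0.83 and -0.62). These genes were named by the size of their change, and coactivator or corepressor role was not set against direction.

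Of 12 commonly used Wnt target genes tested, 9 (75%, against 43.5% of all genes) were called against the mean, 5 that fell and 4 that rose, with a median log2FC of -0.01, equal to that of all genes. *CCND1*, encoding cyclin D1, fell from 1340 ± 52.3 CPM to 97.3 ± 1.36 with EA1 siRNA 1 and 153 ± 75.2 with EA1 siRNA 2 (3.46, edgeR adjusted p = 1.87e-07). The receptor gene *TNFRSF19* fell from 229 ± 9.26 CPM to 23.1 ± 1.05 and 32.9 ± 10 (3.04, edgeR adjusted p = 3.15e-08). The neural crest factor *SNAI2* rose from 29.7 ± 2.89 CPM to 185 ± 6.08 and 182 ± 44.3 (-2.63, edgeR adjusted p = 2.18e-07), and the BMP pseudoreceptor *BAMBI* rose from 45.1 ± 0.643 CPM to 158 ± 8.84 and 154 ± 30.1 (-1.79, edgeR adjusted p = 7.88e-07). The targets thus did not move one way, and many have inputs other than Wnt. Because the list was chosen with earlier results known, its high share of calls is not an unbiased excess. Of the 20 targets listed, 6 also stand in another of the lists, *APCDD1* among them.

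Among cadherins and catenins, which share β-catenin with the pathway, 8 of 9 tested genes (88.9%, against 43.5% of all genes) were called, 5 that fell and 3 that rose. This list too was chosen with earlier results known, so its share is not an unbiased excess. *JUP*, encoding plakoglobin, the close homolog of β-catenin, fell from 32.4 ± 17.1 CPM to 8.61 ± 2.73 and 5.92 ± 0.565 (2.19, edgeR adjusted p = 8.01e-05), in the direction opposite to *CTNNB1*. The cadherin *CDH11* fell from 54.7 ± 8.01 CPM to 19.4 ± 1.99 and 16.4 ± 0.417 (1.61, edgeR adjusted p = 2.96e-06). The α-catenin *CTNNA2* rose (-2.80, edgeR adjusted p = 0.00451) from 6 and 1 counts in control to 32 and 30 with EA1 siRNA 1, and 9 and 25 under EA1 siRNA 2. Control replicate 2, with 1 count, lay below the floor of 3. The call of *CTNNA2* was lost without control replicate 2 (-1.92), and with EA1 siRNA 2 alone also without EA1 siRNA 2 replicate 2 (-1.64).

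**Figure D4:**
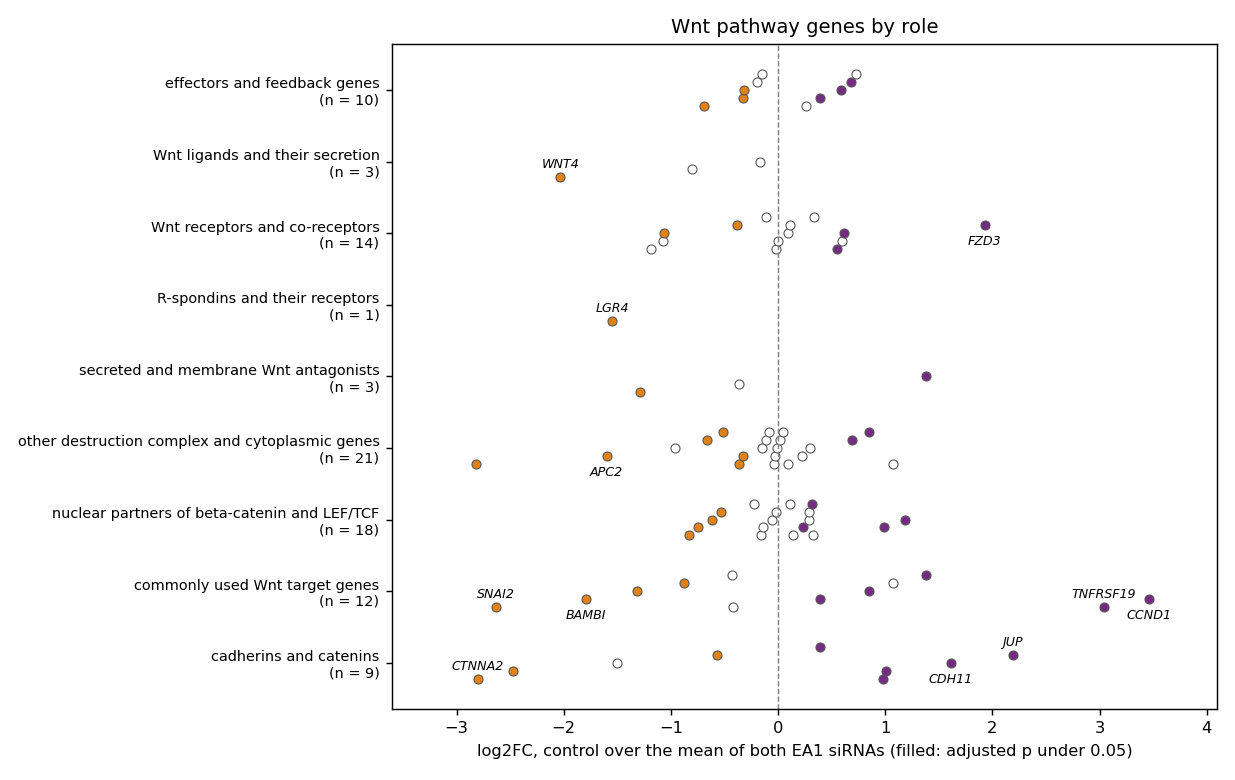
Log2FC, control over the mean of both EA1 siRNAs, of the 10 genes and of the tested genes of the 8 pathway lists (horizontal axis); each point is a gene, filled points passed an adjusted p of 0.05, and called genes named in the text beyond 1.5 in size are labelled. The 10 effectors and feedback genes lie within -0.69 to 0.73, while among labelled genes *CCND1* reaches 3.46 and *CTNNA2* -2.80. An unlabelled filled point lies at -2.82.

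The genes whose pattern over the 6 libraries came nearest to that of *LEF1*, the member with the largest averaged log2FC, were LINC01220 (distance 0.627 in mean-centred log2 CPM, 2 to 17 counts), ENSG00000279608 (0.764, 2 to 19 counts) and ZHX1-C8orf76 (0.859, 1 to 12 counts). All 3 are as sparse as *LEF1*, and in such counts a shared pattern is no finding.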

How the data were processed

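RNA-seq counts of 6 SU-CCS-1 libraries were analysed; groups and replicate numbers came from the sample labels. The authors prepared stranded mRNA libraries, aligned reads to hg38 with BWA-MEM (not a splice-aware aligner), obtained gene counts with featureCounts 1.6.3 and deposited raw counts per gene without normalization or pooling. The annotation, the use of strand and the treatment of reads that map to several genes are not given in the sources used here. The deposited totals of 5942808 to 7599305 counts set the precision, and a floor of 3 counts covers counting error only. The study's methods name 1 siRNA against *EA1*, whereas the labels list 2.

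edgeR 4.0.16 in R 4.3.3 was run on these counts after filtering by condition with filterByExpr (at least 10 counts and a total of 15), with TMM factors and a quasi-likelihood test of the 3 conditions, with Benjamini-Hochberg adjustment over 14571 genes and a threshold of 0.05. The common biological coefficient of variation was 0.109. SE was derived from the F statistic, log2 CPM used a prior count of 2, and RPKM used union exon lengths of GENCODE release 44, in which 18063 of 18118 identifiers were found. The fit was tested on simulated data for control against EA1 siRNA 1, with 200 genes changed. It recovered 56 of 100 changes of 2-fold and 86 of 100 of 4-fold, and 4.7% of its calls were false. Far more genes were called in the real data. Changes below 2-fold, the size of those called for the members, were not simulated. Alternatives were DESeq2 1.42.0, a fit of only the libraries compared, a block for the replicate number, RLE size factors, no filter, a filter of at least 10 counts per library, and fits that each omitted 1 library. Same-numbered replicates, whose numbers come from the labels, deviated together, with correlations of 0.13 (control and EA1 siRNA 1), 0.199 (control and EA1 siRNA 2) and 0.144 (both EA1 siRNAs). Replicates correlated at 0.982, 0.983 and 0.977 across genes and differed by more than counting noise.

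Members and lists were chosen with earlier results of these data known. Beside the 10 members and the targeted genes, up to 2 genes per list and direction were named, those with the largest log2FC averaged over the EA1 siRNAs among genes called with each siRNA and for the mean in the same direction, and the 3 genes nearest in pattern to the member with the largest averaged log2FC. Other series data were not used here.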

Additional observations from a re-analysis of the deposited data

Results flagged for a closer look

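The cadherin gene *CDH2* (N-cadherin) was the single tested gene of the 8 lists that differed between the EA1 siRNAs (5 did with the replicate number as a block), and it was named after its values were seen. It stood at 33.8 and 30.1 CPM in control, 35.7 and 31.3 CPM with EA1 siRNA 1, and 15.8 and 19.2 CPM under EA1 siRNA 2, so that both EA1 siRNA 2 libraries lay below the other 4. The log2FC was -0.07 ± 0.16 for control against EA1 siRNA 1 (edgeR adjusted p = 0.761), 0.86 ± 0.17 for control against EA1 siRNA 2 (edgeR adjusted p = 0.00215) and 0.93 ± 0.17 for EA1 siRNA 1 against EA1 siRNA 2 (edgeR adjusted p = 0.0182). The difference was no longer called without EA1 siRNA 1 replicate 1 (0.83, adjusted p = 0.139) or EA1 siRNA 1 replicate 2 (1.02, adjusted p = 0.139).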

How the results depend on the processing

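Alternatives over the 10 genes gave 463 results, each for a gene, a comparison and a setting. Of these, 386 kept the direction and the side of the threshold, 57 lost a call, 5 gained one and 15 turned in sign. Many of the 386 were not called in the main fit and had no call to lose. The 57 losses therefore fall on the called results alone. The values that turned in sign were none of them called. Leaving out a library leaves 1 sample in a condition, assumed to vary like the others. Over all genes, calls with EA1 siRNA 2 were 5352 as reported, 4150 in DESeq2 and 4869 with only the libraries compared. Members called with EA1 siRNA 2, 6 as reported, were 2 in DESeq2, 3 with only the libraries compared and 2 to 4 with a library left out; with EA1 siRNA 1 they were 0 to 4, for the mean 2 to 6, and between the EA1 siRNAs 0 to 1. Genes called between the EA1 siRNAs, 326 as reported, were 853 with the replicate block, 176 with only the libraries compared and 33 to 788 with a library left out. Pathway genes outside the 10 called there, 1 as reported, were 5 with the replicate block and 0 to 5 with a library left out. The replicate block changed the call of no member or named gene other than *LEF1* with EA1 siRNA 2.

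For EA1 siRNA 1 against EA1 siRNA 2, *CTNNB1* was at -0.00 without the filter and -0.01 with RLE size factors and in DESeq2, *TCF7* at 0.00 with only the libraries compared, and *HIPK2* at 0.00 there and with at least 10 counts in every library. With a library left out the ranges there were -0.07 to 0.08 for *CTNNB1*, -0.28 to 0.23 for *TCF7*, -0.31 to 0.21 for *TCF7L1*, -0.23 to 0.14 for *TCF7L2*, -0.02 to 0.02 for *HIPK2*, -0.20 to 0.29 for *SNAI2*, -0.13 to 0.25 for *BAMBI*, -0.14 to 0.01 for *EWSR1*, -0.66 to 0.08 for *APC2*, -0.01 to 0.40 for *APCDD1*, -0.39 to 0.24 for *TBL1X* and -0.36 to 0.04 for *FZD3*. With EA1 siRNA 1 they were -0.27 to 0.63 for *LEF1*, -0.28 to 0.05 for *TCF7L2* and -0.16 to 0.04 for *CDH2*; with EA1 siRNA 2, -0.05 to 0.16 for *EWSR1*; and for the mean, -0.34 to 0.01 for *AXIN2* and -0.01 to 0.19 for *EWSR1*. The cause was not tested beyond the smaller number of libraries. *LEF1* was not tested with at least 10 counts in every library.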
